A study of Homo sapiens with 18 samples.

Results

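The genes described are those of the proteasome whose symbols begin with PSMA to PSMG followed by a number. This symbol rule was applied to the endogenous transcripts of the deposited table and took 46 of 17026. By function they were 7 alpha and 4 structural beta genes of the core particle, its 3 catalytic beta genes, 3 immunoproteasome genes, 6 ATPase and 11 non-ATPase genes of the regulatory particle, 4 activator genes, 1 inhibitor gene and 7 genes of assembly chaperones. The chaperones (PSMG1 to PSMG4, PSMD5, PSMD9 and PSMD10) carry proteasome symbols but are not subunits of the finished particle. PSMA8 and PSMB11, which belong to tissue-specific forms, were not analysed here.

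The proteasome degrades proteins that have been tagged with ubiquitin. Its core particle is a barrel of stacked rings, with outer alpha rings that gate the entrance and inner beta rings in which PSMB5, PSMB6 and PSMB7 cut the substrate. A regulatory particle binds the barrel's ends: its non-ATPase subunits receive and deubiquitinate the substrate, and its ATPase ring unfolds it. In immune signalling PSMB8, PSMB9 and PSMB10 can replace the constitutive catalytic subunits. When proteasome activity falls short, the transcription factor NFE2L1 raises transcription of most subunit genes together.

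Cells of PANC-1, BxPC-3 and MIA PaCa-2, established human lines of pancreatic ductal adenocarcinoma, were given THZ1 at 100 nM or DMSO, its solvent, for 6 h, and polyadenylated RNA was sequenced. THZ1 binds covalently to CDK7, a kinase of the general transcription machinery, and to CDK12 and CDK13. Every group (3 lines by THZ1 or DMSO, 6 in all) held 3 libraries, together 18, of 6352482 to 20910423 reads. ERCC spike-in RNA had been added to the extracted RNA, each line stems from 1 tumour, and the labels do not say that the replicates were separate cultures, so that p-values measure the spread between these libraries. Keratin transcripts KRT8, KRT18 and KRT19 were found in every library. Epithelial CDH1 was at 285 to 625 in BxPC-3 but at 0.0893 to 0.216 in MIA PaCa-2 and 1.96 to 4.89 in PANC-1. A scale set by the ERCC transcripts follows polyadenylated RNA per amount of extracted RNA, so that RNA per cell and the number of cells cannot be told apart. PANC-1 DMSO replicate 1 stood apart: it was the shallowest library, and its residual SD over all genes was 0.519 log2 units, where the others had 0.103 to 0.309. Values are in the authors' scale multiplied by 1 constant so that the mean library sums to 1000000. All 46 genes passed the filter (a value of 1 in at least 3 libraries), the lowest of them with 36 recovered reads.

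As a share of all endogenous reads, which no library scale can move, the proteasome genes took more with THZ1 than with DMSO in BxPC-3 and MIA PaCa-2. In BxPC-3 they took 0.564% ± 0.0149 of reads with DMSO and 0.650% ± 0.00326 with THZ1 (SD, n = 3). The shares were 0.611% ± 0.0120 and 0.724% ± 0.00609 in MIA PaCa-2, and 0.851% ± 0.0772 and 0.966% ± 0.0554 in PANC-1. THZ1 and DMSO libraries did not overlap in the first pair of lines. They did in PANC-1, where the DMSO libraries reached 0.919% and the lowest THZ1 library was at 0.904%. The single gene PSMC4 made up 31.1% ± 0.477 of the proteasome reads in PANC-1 with DMSO, against 3.05% ± 0.0839 for BxPC-3 and 2.44% ± 0.0213 for MIA PaCa-2 (SD, n = 3). Without it the shares with DMSO and THZ1 were 0.586% ± 0.0549 and 0.661% ± 0.0325 for PANC-1, still overlapping, 0.546% ± 0.0149 and 0.630% ± 0.00314 for BxPC-3, and 0.596% ± 0.0117 and 0.705% ± 0.00594 for MIA PaCa-2. The most-read genes weigh most in a share. PSMD2 and PSMA7 had 10003 and 5862 of the 92279 proteasome reads in BxPC-3 DMSO replicate 1. In THZ1 replicate 1 they had 16285 and 9548 of 109911. With libraries scaled to equal sums, limma called 15 of the 46 higher and 10 lower in BxPC-3 (9.21% and 43.0% of all genes).

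Gene by gene on the deposited scale, limma called 38 of the 46 higher with THZ1 and 0 lower in BxPC-3, where 40.0% of all 15354 genes tested were called higher and 18.9% lower. In MIA PaCa-2 it called 41 higher and 0 lower, against 36.5% and 19.8% of all genes. In PANC-1 it called 1 gene higher, PSMD14, and 0 lower, where 0.274% and 0.228% of all genes were called. Every THZ1 library lay above every DMSO library for 41 proteasome genes in BxPC-3 (51.1% of all genes), 43 for MIA PaCa-2 (47.6%) and 12 for PANC-1 (8.34%).

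These directions hold for the deposited scale. The median proteasome gene had a log2 fold change of 0.79 for BxPC-3, 0.79 for MIA PaCa-2 and 0.17 for PANC-1, and the median of all genes was at 0.25, 0.19 and -0.07. With libraries scaled to the ERCC transcripts instead, the medians of all genes were -0.64, -0.85 and -0.31 and those of the proteasome genes were -0.37, -0.48 and -0.11. On that scale limma called 0 proteasome genes higher and 23 lower in BxPC-3 (1.28% and 59.1% of all genes), 0 and 29 in MIA PaCa-2 (1.36% and 73.9%), and 0 and 2 in PANC-1 (0.0323% and 18.4%). With TMM factors 27 were higher and 4 lower in BxPC-3 (22.4% and 29.9% of all genes), 34 and 1 in MIA PaCa-2 (24.8% and 26.6%), and 0 and 0 in PANC-1 (0.0457% and 0.0979%). DESeq2 size factors gave 28 and 3 (26.5% and 26.7%), 34 and 1 (26.4% and 24.8%), and 0 and 0 (0.0392% and 0.0979%), in the same order. Equal library sums gave 15 and 10 (9.21% and 43.0%), 18 and 4 (9.35% and 43.1%), and 0 and 0 (0.0846% and 1.04%). Most proteasome genes stood above the median gene on each of these scales. The deposited scale put 40, 42 and 40 of the 46 above it in the order of lines given, and the ERCC scale 32, 40 and 40.

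**Figure D1:**
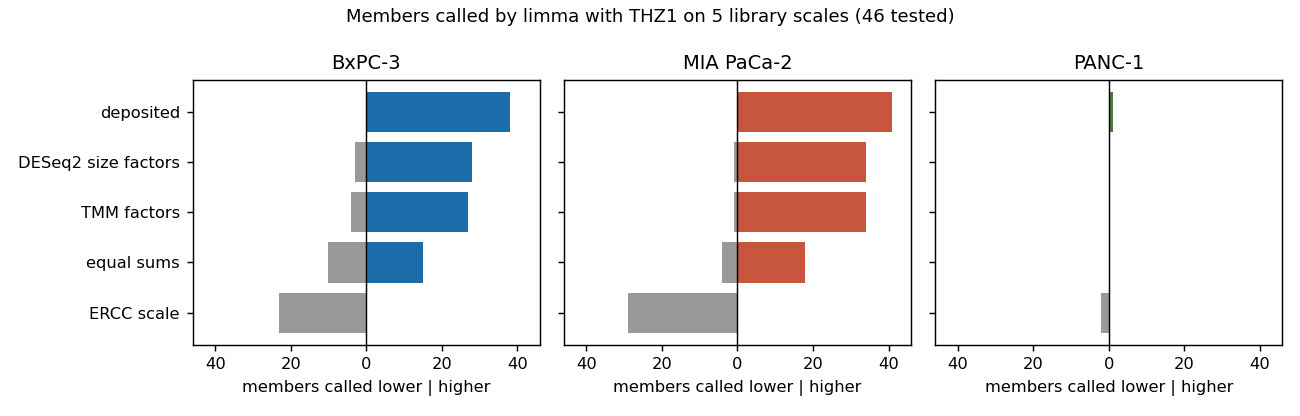
The number of the 46 proteasome genes that limma called higher (coloured, to the right) or lower (grey, to the left) with THZ1 is plotted for each line under 5 ways of scaling the libraries. In BxPC-3 and MIA PaCa-2 the calls run from 38 and 41 higher on the deposited scale to 23 and 29 lower on the ERCC scale, and in PANC-1 no scale gave more than 2 calls.

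The promoters of the set were also examined for short motifs. RefSeq promoters (GRCh38.p14, the 250 bases before the start site, both strands) were matched for 40 of the 46 genes, in 49 windows. The core of the antioxidant response element, TGACNNNGC, which NFE2L1 with small MAF partners can bind, stood in 13 of the 49 windows (26.5%) and in 10.9% of the 35116 windows of all genes. The ETS core CCGGAAG stood in 20.4% against 8.5%, TTCNNNGAA, the core bound by STAT factors, in 12.2% against 6.6%, and CCAAT in 36.7% against 32.0%. A match is a string in a window, not a bound site. The windows were not matched for base composition, and a link between motifs and responses was not tested. The following 4 promoters are shown because they hold the response element core (in capitals) in a structural core gene, an immunoproteasome gene, a regulatory particle gene and an activator gene. Only bases outside annotated exons are printed, on the strand of the gene.
PSMB3, chr17:38752491-38752735, strand +: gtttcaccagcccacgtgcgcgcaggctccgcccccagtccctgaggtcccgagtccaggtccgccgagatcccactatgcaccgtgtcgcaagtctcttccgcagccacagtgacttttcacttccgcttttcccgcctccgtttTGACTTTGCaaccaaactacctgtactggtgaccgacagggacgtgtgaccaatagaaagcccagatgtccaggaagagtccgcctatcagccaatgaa
PSMD3, chr17:39980557-39980796, strand +: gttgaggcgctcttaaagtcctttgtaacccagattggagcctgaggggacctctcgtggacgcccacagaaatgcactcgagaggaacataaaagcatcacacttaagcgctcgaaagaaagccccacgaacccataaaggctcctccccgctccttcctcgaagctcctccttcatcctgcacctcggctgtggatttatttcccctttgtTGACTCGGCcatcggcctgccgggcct
PSMB9, chr6:32853979-32854147, strand +: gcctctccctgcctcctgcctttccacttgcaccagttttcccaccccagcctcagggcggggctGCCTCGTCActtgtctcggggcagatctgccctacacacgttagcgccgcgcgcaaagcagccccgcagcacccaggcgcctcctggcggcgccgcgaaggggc
PSME1, chr14:24135944-24136157, strand +: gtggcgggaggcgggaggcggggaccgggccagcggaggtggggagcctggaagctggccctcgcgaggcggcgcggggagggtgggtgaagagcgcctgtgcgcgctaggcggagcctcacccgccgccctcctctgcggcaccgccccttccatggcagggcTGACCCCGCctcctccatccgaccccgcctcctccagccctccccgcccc
In PSMB9 the motif reads on the opposite strand. The match ends 95 bases before the start site in PSMB3, 28 in PSMD3, 139 in PSMB9 and 77 in PSME1. On the deposited scale PSMB3, PSMD3 and PSME1 had log2 fold changes of 1.02, 0.64 and 1.05 in BxPC-3 and PSMB9 one of 0.28, so that responses ranged widely among genes with the same core.

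The alpha genes, whose products form the outer rings of the core, were called higher in 6 of 7 cases in BxPC-3 and 7 of 7 in MIA PaCa-2, with medians of 0.76 and 0.91 on the deposited scale, and in 0 of 7 in PANC-1, with a median of 0.18. The shares of all genes called higher on that scale were 40.0%, 36.5% and 0.274%. Scaled to ERCC, 0 alpha genes were called higher and 4 lower in both BxPC-3 and MIA PaCa-2 (59.1% and 73.9% of all genes lower). PSMA7 had the highest mean change of the alpha genes over the lines. Its values in BxPC-3 were 278, 313 and 309 with DMSO and 744, 769 and 768 with THZ1. MIA PaCa-2 had 197, 182 and 180 with DMSO and 457, 426 and 421 with THZ1. The THZ1 libraries were far above the DMSO libraries in both lines on this scale, with log2 fold changes of 1.34 ± 0.13 and 1.22 ± 0.13 (SE, limma, adjusted p = 2.07e-07 and 8.06e-07). In PANC-1 its libraries overlapped, at 290, 215 and 181 with DMSO and 280, 222 and 267 with THZ1 (log2 fold change 0.18 ± 0.13, adjusted p = 0.378). PSMA6 was the alpha gene with the lowest mean change and had values of 3.34 to 15.7 over all libraries. Its log2 fold changes were 0.41, 0.62 and -0.34, and only that in MIA PaCa-2 passed (limma, adjusted p = 0.0076). In GENCODE v29 a read-through transcript shares exonic bases with PSMA6 on its strand, and how the authors divided such reads is not given, so that the level of PSMA6 is uncertain.

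The 4 structural beta genes moved nearly alike. Their log2 fold changes spanned 0.95 (PSMB1) to 1.02 (PSMB3) in BxPC-3 and 0.98 (PSMB2) to 1.08 (PSMB4) in MIA PaCa-2, all called on the deposited scale, and on the ERCC scale 0 of the 4 were called in either direction, with medians of -0.19 and -0.24. The shares of all genes were 40.0% and 36.5% higher on the deposited scale, and 59.1% and 73.9% lower on the ERCC scale. In PANC-1 the 4 genes lay between -0.01 and 0.14 and none was called. PSMB4 with DMSO was at 102, 108 and 114 in BxPC-3 and at 241, 233 and 233 in MIA PaCa-2. With THZ1 it was at 208, 215 and 223 in the first line and 513, 485 and 503 in the other. DMSO and THZ1 libraries were far apart in both lines, and MIA PaCa-2 with DMSO already exceeded BxPC-3 with THZ1.

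Of the 3 catalytic genes, PSMB5 had the lowest log2 fold change in each line on the deposited scale. PSMB6, which cuts after acidic residues, was at 59.2, 61.5 and 62.9 with DMSO and 129, 139 and 139 with THZ1 in BxPC-3. PSMB7, which cuts after basic residues, was at 123, 134 and 132 with DMSO and 292, 305 and 311 with THZ1. Both were far higher with THZ1 in that line on the deposited scale. PSMB5, which cuts after hydrophobic residues and is the main target of bortezomib, was at 46, 51.1 and 52.5 with DMSO and 71.2, 70.8 and 67.1 with THZ1. The groups did not overlap, yet the step was smaller. The log2 fold changes in BxPC-3 were 1.14 ± 0.096 for PSMB6, 1.21 ± 0.076 for PSMB7 and 0.48 ± 0.095 for PSMB5 (SE, limma, adjusted p = 4.69e-08, 1.91e-09 and 0.000419). In MIA PaCa-2 they were 1.19, 1.13 and 0.69. In PANC-1 they were 0.18, 0.25 and 0.07, and none was called. Scaled to ERCC, PSMB6 and PSMB7 were at -0.04 and 0.03 in BxPC-3, not called, and PSMB5 fell by 0.69 (limma, adjusted p = 0.000544). Whether PSMB5 differs from PSMB6 or PSMB7 was not tested.

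**Figure D2:**
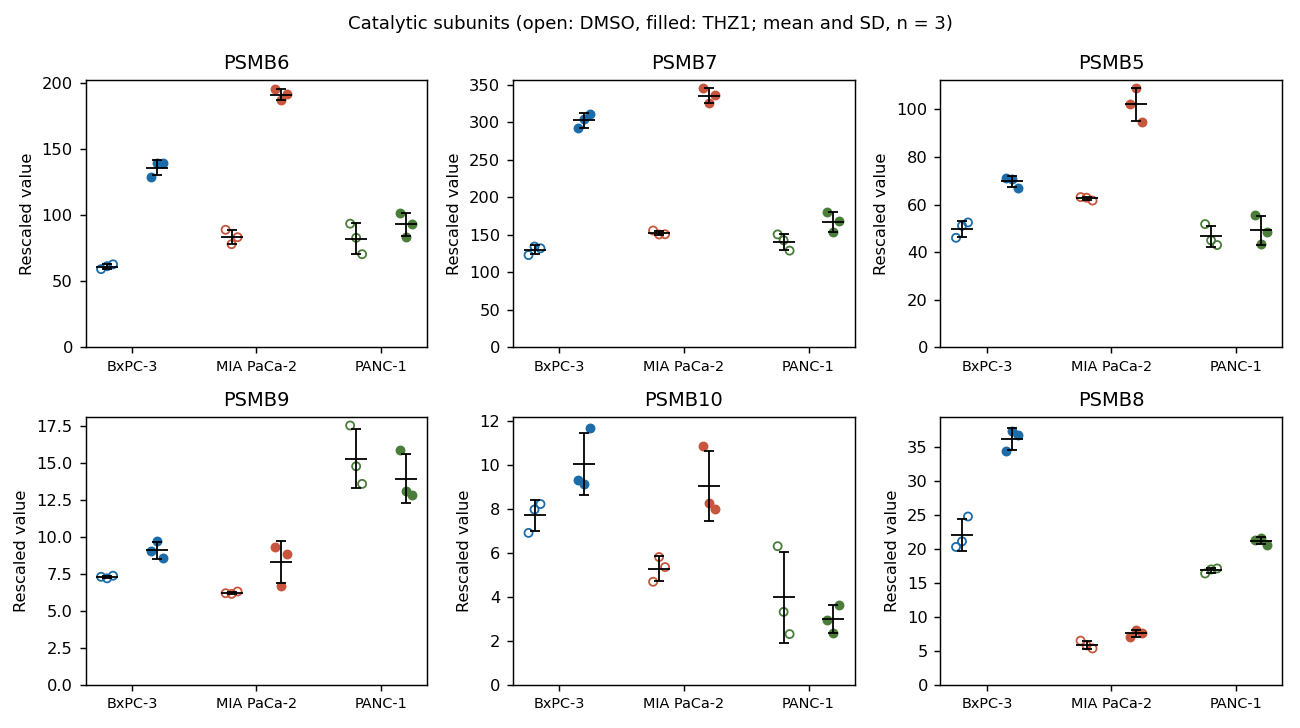
Rescaled values of the 3 constitutive catalytic genes (top) and their immunoproteasome counterparts (bottom) are plotted for each library, with open points for DMSO, filled points for THZ1, and bars for the mean and SD of 3 libraries. PSMB6 and PSMB7 were higher with THZ1 by 1.13 to 1.21 log2 units in BxPC-3 and MIA PaCa-2 on the deposited scale and did not pass the test on the ERCC scale, and PSMB8 in MIA PaCa-2 was at most 8.04.

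The immunoproteasome genes had a lower median log2 fold change than each class of constitutive core genes in every line, on the deposited and on the ERCC scale. On the deposited scale 1 of 3 was called higher for BxPC-3 (PSMB8), 3 of 3 for MIA PaCa-2 and 0 of 3 for PANC-1, with median log2 fold changes of 0.34, 0.35 and -0.12. Of all genes 40.0%, 36.5% and 0.274% were called higher on the deposited scale. All 3 immunoproteasome genes were called lower in BxPC-3 and MIA PaCa-2 on the ERCC scale (59.1% and 73.9% of all genes). PSMB9 was at 7.30, 7.19 and 7.37 with DMSO and 9.03, 9.70 and 8.56 with THZ1 in BxPC-3. MIA PaCa-2 had 6.19, 6.14 and 6.31 with DMSO and 9.34, 6.70 and 8.84 with THZ1. Both lines were without overlap, but only MIA PaCa-2 passed (limma, log2 fold change 0.35 ± 0.12, adjusted p = 0.0236, against 0.28 ± 0.12 and adjusted p = 0.0613 in BxPC-3). PSMB10 reads can also come from an overlapping read-through transcript on its strand, and PSMB9 shares exonic bases with an annotated long non-coding RNA. PSMB10 had log2 fold changes of 0.34, 0.67 and -0.25, of which only that in MIA PaCa-2 passed (limma, adjusted p = 0.0164).

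Ratios within a library do not depend on the library's scale. The log2 ratio of PSMB9 to PSMB6, the subunit it can replace, was -3.07 ± 0.04 with DMSO and -3.90 ± 0.11 with THZ1 in BxPC-3 (SD, n = 3). In MIA PaCa-2 it went from -3.75 ± 0.09 to -4.54 ± 0.23, and in PANC-1 from -2.43 ± 0.06 to -2.74 ± 0.11. The THZ1 libraries lay below all DMSO libraries in each of the 3 lines. The ratio of PSMB10 to PSMB7 differed by -0.84 in BxPC-3, without overlap, and by -0.37 and -0.56 in MIA PaCa-2 and PANC-1, where libraries overlapped. Without PANC-1 DMSO replicate 1 the last of these was -0.21. The ratio of PSMB8 to PSMB5 behaved otherwise: it differed by 0.23 in BxPC-3 (THZ1 above DMSO), by -0.34 in MIA PaCa-2 (below) and by 0.26 in PANC-1 (overlapping), which was 0.16 without DMSO replicate 1 and 0.16 without THZ1 replicate 2. With 3 libraries a group, the smallest two-sided p of an exact permutation test is 0.1, so no p is given for these ratios.

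The ATPase genes, whose products form the unfolding ring, were called higher in 5 of 6 cases on the deposited scale, both in BxPC-3 (median 0.86) and MIA PaCa-2 (median 0.98), and in 0 of 6 in PANC-1 (median 0.21). The shares of all genes called higher on the deposited scale were 40.0%, 36.5% and 0.274%. With ERCC scaling 0 ATPase genes were called higher and 3 lower in each of the first pair of lines (59.1% and 73.9% of all genes lower). PSMC6 was the exception. In BxPC-3 it was at 71.5, 62.2 and 67.6 with DMSO and 74.5, 70.3 and 72.9 with THZ1. MIA PaCa-2 had 74.8, 82.1 and 77.8 with DMSO and 81.3, 90.3 and 89.6 with THZ1. DMSO and THZ1 libraries overlapped in both lines, and the log2 fold changes of 0.11 ± 0.13 and 0.15 ± 0.13 did not pass (limma, adjusted p = 0.486 and 0.353). PSMC5, another ATPase of the ring and the one with the highest mean change, had log2 fold changes of 0.93 ± 0.11 and 1.04 ± 0.11 (limma, adjusted p = 1.79e-06 and 7.1e-07). PSMC6 on the ERCC scale fell by 1.06 in BxPC-3 and by 1.13 in MIA PaCa-2, both called.

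All 11 non-ATPase genes, which make up the scaffold, ubiquitin receptors and deubiquitinase of the regulatory particle, were called higher in BxPC-3 and MIA PaCa-2 on the deposited scale, with medians of 0.81 and 0.79. The shares of all genes called higher on the deposited scale were 40.0% and 36.5%. With ERCC scaling 0 non-ATPase genes were higher, and 6 and 8 were lower (59.1% and 73.9% of all genes lower). PSMD2, a large scaffold subunit, had the largest change in both on the deposited scale. It was at 474, 505 and 517 with DMSO and 1268, 1296 and 1291 with THZ1 in BxPC-3. MIA PaCa-2 had 600, 568 and 573 with DMSO and 1328, 1272 and 1272 with THZ1. In PANC-1 it was at 508, 513 and 480 with DMSO and 642, 571 and 608 with THZ1. DMSO levels were alike in BxPC-3 and PANC-1, and THZ1 libraries were above DMSO in all 3 lines. The log2 fold changes were 1.36 ± 0.066, 1.15 ± 0.066 and 0.28 ± 0.066 (SE, limma, adjusted p = 1.77e-10, 2.05e-09 and 0.0639). PSMD14, the deubiquitinase, was the gene that passed in PANC-1. Its values there were 84.5, 106 and 99.9 with DMSO and 124, 123 and 125 with THZ1, a log2 fold change of 0.36 ± 0.074 (limma, adjusted p = 0.0472). The call was lost on the ERCC, equal-sum, TMM and DESeq2 scales, without a filter, with the replicate block, in the fit of 1 line and by edgeR, and in 15 of the 18 fits that left out 1 library. PSMD14 was at 0.82 and 0.91 in BxPC-3 and MIA PaCa-2. PSMD7, a scaffold partner of PSMD14, had the lowest mean change of the non-ATPase genes over the lines on the deposited scale, with 0.32, 0.38 and 0.09.

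**Figure D3:**
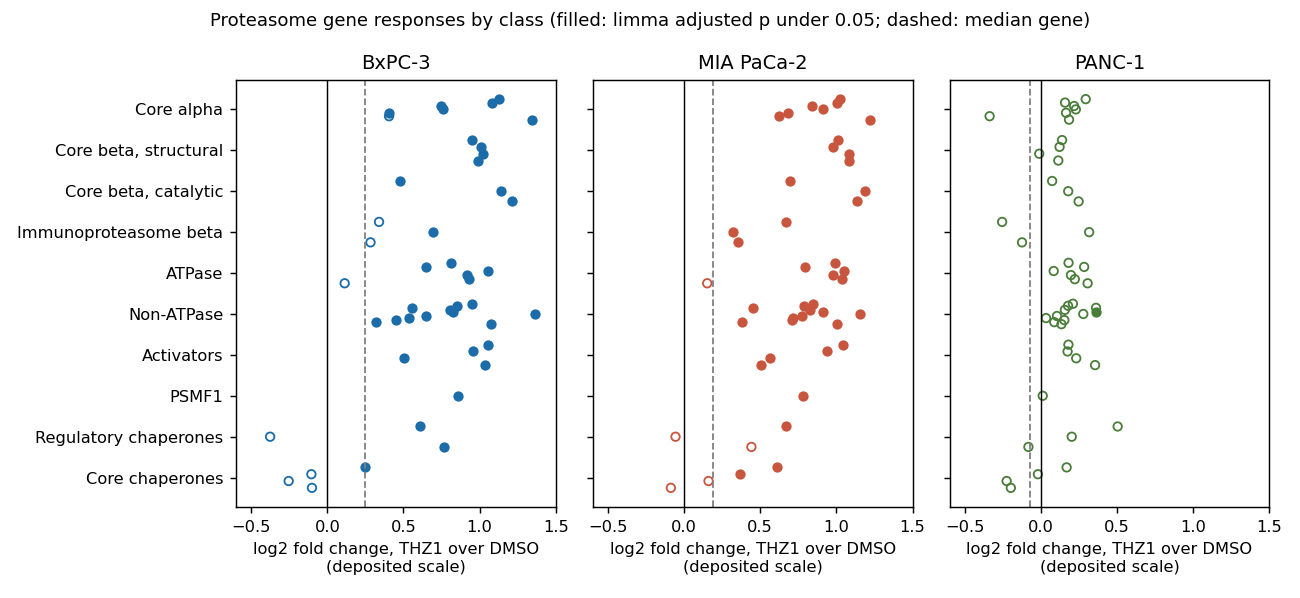
Each point is 1 proteasome gene, placed by class (vertical) and by its log2 fold change of THZ1 over DMSO on the deposited scale (horizontal), for each line, with filled points past the limma threshold and the dashed line at the median gene. Core, ATPase, non-ATPase and activator genes lie to the right of the median gene in BxPC-3 and MIA PaCa-2 except PSMC6, while chaperones reach to its left. With ERCC scaling all genes shift left and 0 were called higher.

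PSME1 and PSME2, which form the interferon-inducible activator of the core, had log2 fold changes of 1.05 and 0.96 for BxPC-3, 1.04 and 0.94 for MIA PaCa-2 and 0.18 and 0.17 for PANC-1. PSME3, the nuclear activator, had 0.50, 0.57 and 0.23, and PSME4, the activator linked to histone turnover, had 1.04, 0.50 and 0.36. All 4 were called higher in BxPC-3 and MIA PaCa-2 on the deposited scale and 0 in PANC-1. The shares of all genes called higher on the deposited scale were 40.0%, 36.5% and 0.274%. With ERCC scaling 0 activator genes were higher, 1 was lower in BxPC-3 (59.1% of all genes) and 3 were lower in MIA PaCa-2 (73.9%). PSMF1, an inhibitor of the core, had 0.86, 0.78 and 0.01. Relative to the median of the core genes in the same library, PSME1 was higher with THZ1 by 0.24 for BxPC-3 and 0.14 for MIA PaCa-2, without overlap, and by 0.03 for PANC-1, with overlap. Without THZ1 replicate 1 the difference in MIA PaCa-2 was 0.088.

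The chaperones of core assembly had the lowest median change of all classes in BxPC-3 and MIA PaCa-2. PSMG1 and PSMG2 pair up to start the alpha ring, as do PSMG3 and PSMG4. On the deposited scale 1 of the 4 was called higher in BxPC-3 (PSMG1), 2 in MIA PaCa-2 (PSMG1 and PSMG2) and 0 in PANC-1, with medians of -0.10, 0.26 and -0.11. Of all genes 40.0%, 36.5% and 0.274% were called higher on the deposited scale. On the ERCC scale all 4 chaperone genes were called lower in BxPC-3 and MIA PaCa-2 (59.1% and 73.9% of all genes), with a median of -1.21 in BxPC-3. PSMG4 was at 13.1, 13.7 and 13.5 with DMSO and 12.5, 13.7 and 11.4 with THZ1 in BxPC-3. MIA PaCa-2 had 45.1, 42.8 and 44.6 with DMSO and 43.7, 42.3 and 38.7 with THZ1. Libraries overlapped in both, and the log2 fold changes of -0.10 and -0.09 did not pass. With TMM factors PSMG2, PSMG3 and PSMG4 were called lower in BxPC-3, by -0.48, -0.63 and -0.46, and PSMG4 in MIA PaCa-2, by -0.32 (limma, adjusted p = 0.0115, 0.000924, 0.000817 and 0.0113). PSMG3 and PSMG4 stayed below the median gene in all 3 lines on the deposited scale, and they were the 2 proteasome genes called lower on the ERCC scale in PANC-1.

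Set against the 14 constitutive core genes of the same library, the log2 ratio of the PSMG median to the core median was -1.58 ± 0.02 with DMSO and -2.55 ± 0.05 with THZ1 for BxPC-3 (SD, n = 3). In MIA PaCa-2 it went from -1.24 ± 0.06 to -2.01 ± 0.06. The libraries did not overlap in either line. In PANC-1 it was -2.30 ± 0.15 and -2.44 ± 0.03, with overlap. The ratio of the immunoproteasome median to the core median differed by -0.44, -0.36 and -0.26, with THZ1 below DMSO in all libraries of each line. The ratio of the ATPase median to the core median differed by -0.08, 0.03 and -0.01, with overlap throughout. That of the non-ATPase median differed by -0.01, -0.19 and -0.01, without overlap only in MIA PaCa-2. For PSMD5, PSMD9 and PSMD10 the median ratio differed by -0.50, -0.28 and 0.05, with overlap only in PANC-1. There it was -0.34 without DMSO replicate 1. Each ratio also moves with the core median. Over the median gene, the core median differed by 0.88, 0.94 and 0.18, without overlap in any line. The PSMG ratio differed by far more than the spread of the libraries in BxPC-3 and MIA PaCa-2. For the ATPase ratio the libraries overlapped in each line. Its difference of -0.08 in BxPC-3 was larger than the SD of either group (0.03 with DMSO and 0.06 with THZ1).

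**Figure D4:**
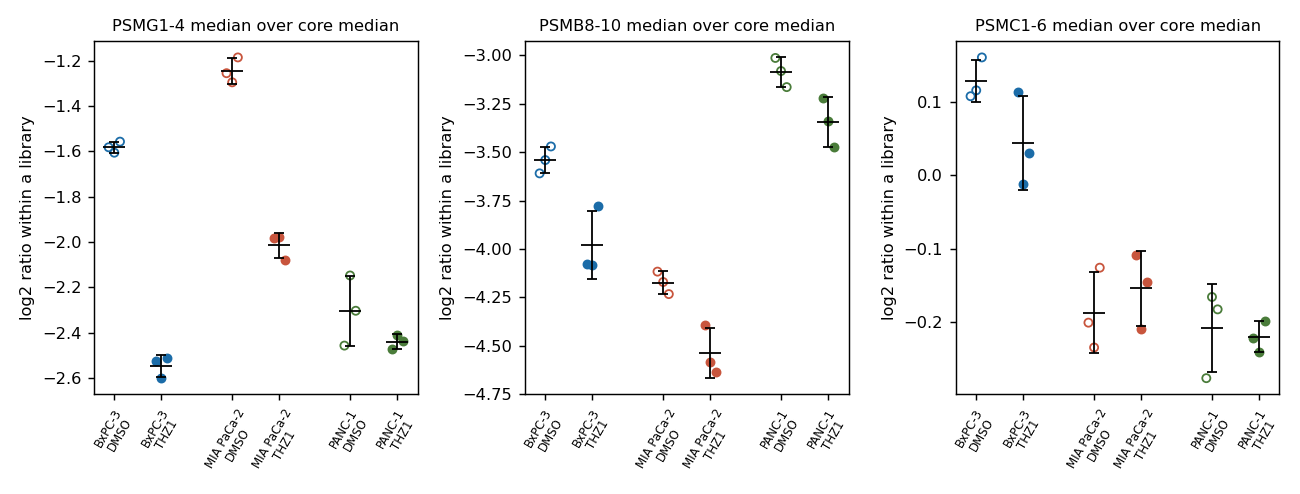
Log2 ratios of class medians within each library are plotted for DMSO (open) and THZ1 (filled), with the mean and SD of 3 libraries, for core chaperones (left), immunoproteasome genes (middle) and ATPases (right), each over the core median. The chaperone ratio differed between THZ1 and DMSO by -0.96 for BxPC-3 and -0.77 for MIA PaCa-2, and the ATPase ratio by -0.08 and 0.03.

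Of the chaperones that help build the regulatory particle, PSMD10 was called higher on the deposited scale in BxPC-3 and MIA PaCa-2 (0.61 and 0.67) and PSMD9 in BxPC-3 (0.77). PSMD9 had values of 3.41 to 14.3, and its exons overlap other genes on its strand. PSMD5 was at 60.3, 67.0 and 62.4 with DMSO and 47.5, 48.6 and 49.3 with THZ1 in BxPC-3. All THZ1 libraries were below all DMSO libraries, but the log2 fold change of -0.38 ± 0.19 did not pass (limma, adjusted p = 0.0988). With TMM factors it was -0.76 and was called lower (limma, adjusted p = 0.019). In MIA PaCa-2 and PANC-1 PSMD5 had log2 fold changes of -0.06 and 0.20, neither called. An antisense gene of PSMD5 has its own row in the table, but in GENCODE v29 no exon of another gene overlaps those of PSMD5. PSMD7, by contrast, shares 842 of its 1985 exonic bases with a gene on the other strand. The strand setting of the counting is not given.

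On the deposited scale most of the 46 log2 fold changes were lower in PANC-1 than in the other lines. On the ERCC scale most were higher in PANC-1, and the median fall was smallest there. The medians on that scale were -0.37 for BxPC-3, -0.48 for MIA PaCa-2 and -0.11 for PANC-1. An F-test on the difference of the response between lines called 35 of the 46, and 50.6% of all genes. Between MIA PaCa-2 and BxPC-3 limma called 1 of the 46, PSMG2, higher in MIA PaCa-2 by 0.47 ± 0.14 (adjusted p = 0.0315), where 6.14% of all genes were higher and 7.66% lower. This call was lost on the ERCC, equal-sum, TMM and DESeq2 scales, with the replicate block and by edgeR, and in 10 of the 18 fits that left out 1 library, while the difference stayed between 0.33 and 0.61 over all of these. The response was lower in PANC-1 than in BxPC-3 for 31 genes (30.8% of all genes) and lower than in MIA PaCa-2 for 36 (27.4%). For PSMD2 the first difference was -1.09 ± 0.093, for PSMB7 -0.97 ± 0.11. With ERCC scaling 37 of the 46 responses were higher in PANC-1 than in BxPC-3, and limma called 8 of the differences higher (28.6% of all genes) and 0 lower (1.54%). Against MIA PaCa-2 41 responses were higher, of which 7 were called (41.8%). The differences of PSMD2 and PSMB7 from BxPC-3 were -0.18 and -0.06 on that scale, neither called. Across the 46 genes the responses in BxPC-3 and MIA PaCa-2 had a Pearson r of 0.88, those in BxPC-3 and PANC-1 one of 0.40 and those in MIA PaCa-2 and PANC-1 one of 0.28. Over all genes tested r was 0.77, 0.34 and 0.28. These describe genes of the same libraries, not replicates.

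The count in PANC-1 turned on single libraries. Without DMSO replicate 1, limma called 19 of the 46 higher with THZ1 and 5.63% of all genes. Without DMSO replicate 2 it called 5 (3.33%), and without DMSO replicate 3 it called 12 higher (10.5%) and 1 lower. Without any of the other 15 libraries it called 0, so that the call of PSMD14 was lost. Among the 19 were PSMA7 (0.37), PSMC5 (0.34), PSME2 (0.31), PSMB7 (0.30), PSMD2 (0.29) and PSMB6 (0.28). For PSMB3 that library was at 165 against 95.1 and 84.6 in the other DMSO libraries and 97.8 to 120 with THZ1. For PSMD10 it was the low one, at 21.2 against 50.5 and 48.1. The other values of the PANC-1 groups lay much closer together, and the part of the library's depth in this was not tested. DESeq2 on the recovered reads of all libraries called 13 of the 46 higher and 2.3% of all genes.

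Before any THZ1, the 3 lines differed in most proteasome genes. An F-test among the DMSO groups called 43 of the 46, and 79.1% of all genes. The genes that did not pass were PSMC2, PSMD9 and PSMD10. By pairs, limma called 23 of the 46 higher and 10 lower in MIA PaCa-2 than in BxPC-3 (37.5% and 25.1% of all genes), 18 and 15 in PANC-1 than in BxPC-3 (33.7% and 25.4%), and 12 and 17 in PANC-1 than in MIA PaCa-2 (28.0% and 32.8%). These counts moved with the scale. On the ERCC scale they were 29 and 4 (49.9% and 15.3%), 18 and 8 (34.1% and 19.6%), and 6 and 23 (19.5% and 41.2%), and with TMM factors 15 and 14 (30.6% and 31.7%), 15 and 17 (28.7% and 31.3%), and 13 and 15 (29.5% and 31.6%). The F-test called 41 and 38 of the 46 on these scales and 35 with DESeq2 size factors. Divided by exonic length in GENCODE v29, the level of the median proteasome gene was 32.4 per kilobase for BxPC-3, 37.9 for MIA PaCa-2 and 31.7 for PANC-1. PSMA7 was the highest per kilobase in BxPC-3 (191), PSMB4 in MIA PaCa-2 (244) and PSMC4 in PANC-1 (1412). PSMD9 was the lowest in each line, at 2.22, 1.63 and 2.23. PSMB10 was among the 4 lowest in each.

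The immune members set the lines apart in different ways. PSMB8 with DMSO was at 20.3, 21.2 and 24.8 in BxPC-3, at 6.51, 5.82 and 5.36 in MIA PaCa-2 and at 16.4, 17.0 and 17.2 in PANC-1. MIA PaCa-2 was lower than BxPC-3 by a log2 difference of -1.74 ± 0.096 (limma, adjusted p = 6.84e-11). PSMB9, by contrast, was at 17.5, 14.8 and 13.6 in PANC-1, above BxPC-3 by 0.97 and above MIA PaCa-2 by 1.17. PSME1 was lowest in PANC-1, at 37.4, 32.9 and 29.6 against 95.0, 100 and 99.3 in BxPC-3 and 87.5, 78.6 and 81.8 in MIA PaCa-2. Its log2 differences were -1.54 ± 0.092 and -1.29 ± 0.092, while its partner PSME2 did not differ between PANC-1 and MIA PaCa-2 beyond the spread (-0.0022 ± 0.10) and had a log2 difference of -0.90 between PANC-1 and BxPC-3. PSMG4 was 1.65 higher in MIA PaCa-2 than in BxPC-3, and PSMD13 was 1.36 higher in PANC-1 than in BxPC-3.

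PSMC4, an ATPase gene on chromosome 19, had the largest difference between lines among the 46. With DMSO it was at 137, 140 and 138 in BxPC-3, at 128, 124 and 123 in MIA PaCa-2 and at 2418, 2270 and 2052 in PANC-1. All PANC-1 libraries were thus far above every library of the other lines. The log2 difference was 4.01 ± 0.075 from BxPC-3 and 4.15 ± 0.075 from MIA PaCa-2 (SE, limma, adjusted p = 1.41e-16 and 1.87e-16). With THZ1 PSMC4 was at 2782, 2337 and 2610 in PANC-1. Its log2 fold change of 0.20 ± 0.075 there did not pass (limma, adjusted p = 0.162), and it was at 0.92 for BxPC-3 and 0.97 for MIA PaCa-2. The next largest excess of PANC-1 over BxPC-3 among the 46 was that of PSMD13, at 1.36.

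Genes beside PSMC4 shared the difference. This neighbourhood was looked at after the level of PSMC4 had been seen. Of the 20 tested genes on each side in RefSeq order, 26 of 40 were called higher in PANC-1 than in both other lines (2411 of all 15354 genes), and 21 of 40 were higher by over 2 log2 units in both (224 of 15354). The raised stretch ran over SAMD4B (3.27 above BxPC-3), PAF1 (3.47), SUPT5H (3.10) and FBL (3.18) to PSMC4 and on to MAP3K10 (4.45) and AKT2 (3.66). It ended between AKT2 and C19orf47, which differed by 0.29, and PLD3, the gene after it, differed by -0.75. No copy number was measured.

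**Figure D5:**
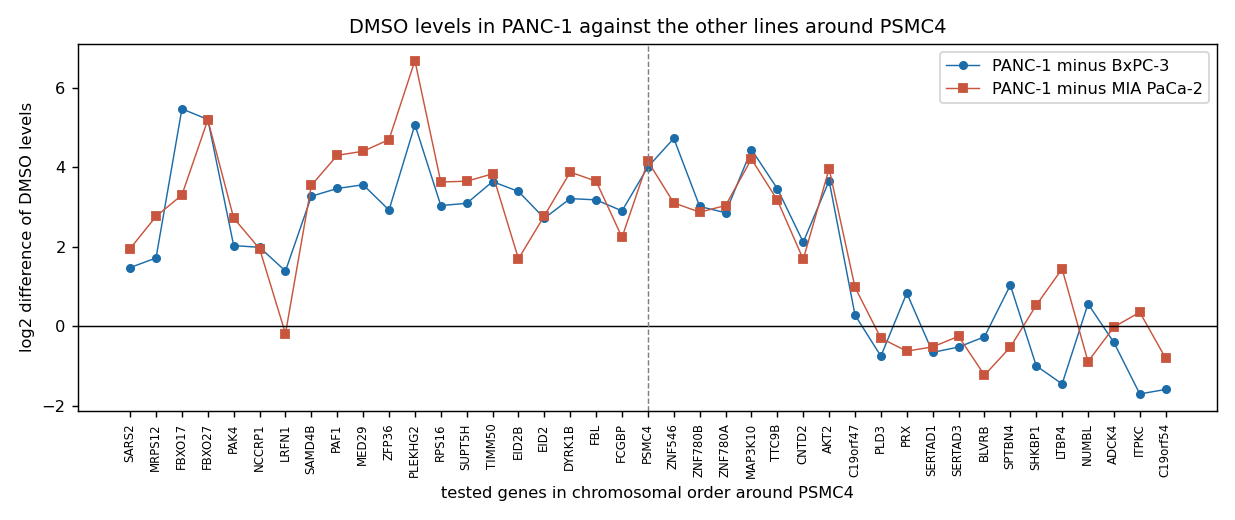
The log2 difference of the DMSO level of PANC-1 from BxPC-3 and from MIA PaCa-2 is plotted for PSMC4 (dashed line) and the 20 tested genes on each side in gene order. A block of genes from FBXO17 to AKT2 lies mostly above 2, PSMC4 is at 4.01 and 4.15, and the genes after AKT2 lie between -1.70 and 1.45.

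Genes that serve the proteasome were followed in lists. Of 9 further parts and maturation factors with a row, 8 were called higher for BxPC-3, 7 for MIA PaCa-2 and 0 for PANC-1 on the deposited scale, with medians of 0.69, 0.60 and 0.32. Of all genes 40.0%, 36.5% and 0.274% were called higher on the deposited scale. With ERCC scaling 0 of the 9 were higher, and 4, 7 and 0 were lower (59.1%, 73.9% and 18.4% of all genes lower). POMP, which matures the core, was at 0.98, 1.02 and 0.11, close to the structural beta genes, and SHFM1, a small subunit of the regulatory particle, at 1.23, 1.03 and 0.47. PAAF1, which holds back the joining of core and regulatory particle, was at -0.24, 0.24 and 0.09 and did not pass in any line.

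On the deposited scale, 7 of 9 genes around NFE2L1 were called higher and 1 lower in BxPC-3 (40.0% and 18.9% of all genes). In MIA PaCa-2 5 were higher and 2 lower (36.5% and 19.8%), and in PANC-1 0 were called. With ERCC scaling 2 were higher and 4 lower in BxPC-3 (1.28% and 59.1% of all genes), and 0 and 8 in MIA PaCa-2 (1.36% and 73.9%). NFE2L1 itself had log2 fold changes of 0.58 ± 0.067, 0.23 ± 0.067 and 0.06 ± 0.067 (SE, limma, adjusted p = 1.82e-06, 0.00824 and 0.553). Relative to the median gene that in MIA PaCa-2 was below it on the ERCC scale, by -0.21. MAFK, a small MAF partner, had the highest mean over the lines, with 1.53, 1.34 and 0.16. DDI2, the protease that releases active NFE2L1, was at 0.23 in BxPC-3 but at -1.44 ± 0.091 in MIA PaCa-2 (limma, adjusted p = 3.98e-09). Whether these levels bear on the proteasome genes was not tested. NGLY1, which deglycosylates NFE2L1, was the gene called lower in BxPC-3, at -0.59, and was the other one called lower in MIA PaCa-2, at -0.30.

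Of 14 genes for ubiquitin supply and shuttling, 9 were called higher and 2 lower in BxPC-3 on the deposited scale (40.0% and 18.9% of all genes). In MIA PaCa-2 it was 9 and 0 (36.5% and 19.8%). With ERCC scaling 0 were higher, and 8 and 10 were lower, near the shares of all genes (59.1% and 73.9%). RPS27A, a ubiquitin fusion gene, had the highest mean over the lines, with 1.34, 1.10 and 0.15, and ZFAND5, a proteasome-binding zinc finger gene, the lowest, with -0.56, -0.33 and 0.17. Among 10 partners of the immunoproteasome in antigen presentation, 7 were called higher in each of the first pair of lines and 1 in PANC-1 (B2M, 0.43, limma, adjusted p = 0.0472) on the deposited scale. The shares of all genes called higher on that scale were 40.0%, 36.5% and 0.274%. The 1 partner called lower there in BxPC-3 (18.9% of all genes) was IRF1, at -0.66, which was at 1.08 in MIA PaCa-2. With ERCC scaling 0 partners were higher, and 4 and 5 were lower in the first pair of lines (59.1% and 73.9% of all genes lower). TAP1, a peptide transporter gene whose start site lies 488 bases from that of PSMB9 in RefSeq, was at 0.64, 0.41 and 0.20, where PSMB9 was at 0.28, 0.35 and -0.12. B2M was at 1.26 and 1.00 in BxPC-3 and MIA PaCa-2.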

How the data were processed

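Polyadenylated RNA was sequenced in 18 libraries of 3 cell lines. Alignment used STAR against hg19, per the submitters' processing notes. Which program counted the reads, with which annotation and strand setting, and how libraries were scaled is not given in the sources used here. In the table as deposited by the authors, the signal of a gene in a library equals its read number over a whole-number divisor of that library. Multiplying by the divisors gave whole reads for 100% of values (tolerance 0.001, maximum deviation 0.000112). The log2 ratios and log2 mean level that the authors deposited beside these columns, averages over the 3 lines, were not used. Values were multiplied by 17.6795, so that the mean library sums to 1000000, and 1 unit stands for 6.34 to 24.7 reads. The test planned for normalised values was used, not the one planned for plain counts.

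Genes with 1 or more in at least 3 libraries (15354) were tested with limma 3.58.1 in R 4.3.3 (trended prior variance) on log2(value + 1), which understates changes of low genes, with 6 group means, 12 residual df and Benjamini-Hochberg adjustment at 0.05 over all genes. The recovered counts, made from the deposited signal, were tested with edgeR 4.0.16 and DESeq2 1.42.0 as alternatives. The fits were tested on simulated data. Replicate pairs differed by more than sampling noise (chi-square per gene of 1.52 to 4.08 in BxPC-3 and MIA PaCa-2). It was 126 and 133 in the pairs with PANC-1 DMSO replicate 1, and 4.23 to 15.8 in the other pairs of PANC-1. The other alternatives were ERCC, equal-sum, TMM and DESeq2 scaling, filters of 0 and 5, pseudocounts of 0.25 and 5, fits on 1 line, a replicate block and leaving out each library.

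The members and lists were chosen with earlier results of these data known. Named by rule were the catalytic, immunoproteasome, activator, inhibitor and chaperone genes, the member with the highest and lowest mean change in each other class, exceptions of 5 or fewer to a count, the highest and lowest gene of each further list, and NFE2L1, POMP and TAP1. PSMC4 with its neighbours, PSMD13, PSMB1, PSMB2, PSMD3, NGLY1 and IRF1 were named after their values were seen.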

Additional observations from a re-analysis of the deposited data

Results flagged for a closer look

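The response to THZ1 differed between the 3 lines for 17 named proteasome genes by an F-test on the interaction of line and treatment (limma, deposited scale, adjusted p under the threshold of 0.05). Of all genes tested, 50.6% passed this test. The value given is the spread between the highest and the lowest of the 3 log2 fold changes. It was above 1 for PSMA7 (1.16), PSMB3 (1.09), PSMD2 (1.09) and PSMB6 (1.01). In the core it was 0.97 for PSMB4, 0.97 for PSMB7, 0.96 for PSMA6 and 0.62 for PSMB5. PSMC5 had 0.81. Among the activators it was 0.87 for PSME1, 0.78 for PSME2, 0.68 for PSME4 and 0.33 for PSME3, and for the inhibitor PSMF1 it was 0.85. It was 0.38 for PSMB8, 0.44 for PSMG1 and 0.47 for PSMG2. In 16 of the 17 the lowest response was that of PANC-1, and for PSMG2 it was that of BxPC-3. The direction of the difference is that of the deposited scale. On the ERCC scale 37 of the 46 responses were higher in PANC-1 than in BxPC-3. There limma called 8 of the differences higher and 0 lower (28.6% and 1.54% of all genes).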

How the results depend on the processing

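Depth limits the low genes: the shallowest library, PANC-1 DMSO replicate 1, has 6.34 reads per unit, and PSMB10, PSMA6 and PSMD9 lie near or under 10 units. PSMB9 in BxPC-3 and MIA PaCa-2 and PSMB8 in MIA PaCa-2 lie under 10 units too, and they enter the immunoproteasome ratios. Called higher for BxPC-3, for MIA PaCa-2 and for PANC-1 were 0, 0 and 0 proteasome genes on the ERCC scale and 15, 18 and 0 with equal sums. In PANC-1 the count was 0 with TMM factors, DESeq2 size factors, no filter, the replicate block, groups of 1 line only and edgeR, 2 with a filter of 5 and 13 by DESeq2. Called lower were 23, 29 and 2 on the ERCC scale and 10 and 4 with equal sums in the first pair of lines. In BxPC-3, 4 were lower with TMM factors, edgeR and DESeq2, 3 with DESeq2 size factors, 2 with groups of 1 line and 1 with the replicate block; in MIA PaCa-2 the count was 1 with TMM factors, DESeq2 size factors, edgeR and DESeq2. The median proteasome gene minus the median gene stayed above 0. In BxPC-3 it was 0.26 (ERCC), 0.38 (equal sums), 0.46 (TMM), 0.48 (DESeq2 size factors), 0.50 (filter of 5), 0.50 (pseudocount 0.25), 0.63 (pseudocount 5), 0.47 (edgeR) and 0.47 (DESeq2). In MIA PaCa-2 it was 0.37 (ERCC), 0.46 (equal sums), 0.55 (TMM), 0.56 (DESeq2 size factors), 0.64 (no filter), 0.56 (pseudocount 0.25), 0.66 (pseudocount 5), 0.54 (edgeR) and 0.54 (DESeq2). Response differences between lines were called for 9 (ERCC), 11 (equal sums), 22 (TMM), 17 (DESeq2 size factors) and 21 (edgeR). Leaving out 1 library each, the median difference ranged from 0.50 to 0.57, from 0.56 to 0.64 and from 0.16 to 0.29. The number called higher ranged from 35 to 41, from 39 to 43 and from 0 to 19, and the number lower from 0 to 2, from 0 to 0 and from 0 to 1. Response differences ranged from 32 to 41 and DMSO differences from 41 to 46. Relative to the median gene, PSMB5 in BxPC-3 was at -0.054 and PSME3 at -0.044 on the ERCC scale, and PSMD7 at -0.21 (ERCC), -0.10 (equal sums), -0.022 (TMM), -0.017 (edgeR) and -0.017 (DESeq2). In MIA PaCa-2 PSMD7 was at -0.053, PSMG2 at -0.060 and TAP1 at -0.017 on the ERCC scale, and NFE2L1 at -0.21 (ERCC), -0.10 (equal sums), -0.0086 (TMM), -0.020 (edgeR) and -0.020 (DESeq2). PSMG1 in BxPC-3, just under the median gene on the deposited scale, was at 0.029 without a filter, 0.091 with a pseudocount of 5 and -0.063 to 0.052 without single libraries. DDI2 in BxPC-3, likewise, was at 0.017, 0.088 and -0.051 to 0.026. The cause of these changes was not tested. Same-numbered libraries correlated at 0.09, 0.02 and -0.0031 for BxPC-3, 0.14, 0.07 and 0.02 for MIA PaCa-2 and 0.45, 0.30 and -0.03 for PANC-1. Libraries of unlike number correlated at -0.07 to 0.05, at -0.13 to 0.07 and at -0.51 to 0.50 in the same order of lines. Whether a number marks a shared culture or day cannot be told from these values. With the replicate block 37, 41 and 0 were called higher and 33 response differences.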
